A study of Mus musculus with 12 samples.

Results

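To describe where BMAL1 was bound around the genes that run the cell cycle, 68 cyclin, kinase and replication genes were followed through the BMAL1-ChIP-seq of control and senescent mouse adult fibroblasts (MAFs). They are the protein-coding genes of the GENCODE annotation (release M21, mm10) whose symbols follow the patterns Ccna, Ccnb, Ccnd, Ccne, Cdk, Cdc, Cdc25, E2f and Mcm with a number or letter, together with Wee1, Chek1, Chek2, Plk1, Aurka and Aurkb, and without the Cdkn inhibitors. They made up 68 of 21864 genes. The choice used symbols and no measured value. The fibroblasts were primary wild-type cells from the ears of adult female C57BL/6J mice, grown at 3% oxygen. Control cells were sham irradiated, senescent cells received 20 Gy of X-rays, and all cells were given 100 nM dexamethasone to align their clocks and were harvested 12 hours later. The series held 3 control and 3 senescent BMAL1-ChIP-seq libraries and 6 input libraries, which were not analysed here. Whether the replicates of a group came from separate cultures or mice is not stated, so p-values measure only the spread between these libraries, which may be technical.

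BMAL1 and CLOCK form the activator at the core of the circadian clock, which binds E-boxes of the sequence CACGTG. The clock and the cell cycle share genes, the best known being Wee1, a kinase that holds CDK1 inactive before mitosis and whose promoter carries E-boxes. Cyclin D with CDK4 or CDK6 and cyclin E with CDK2 take a cell through G1 into S phase by releasing E2F factors from the retinoblastoma protein, CDC and MCM proteins license and open replication origins, and cyclin B with CDK1 and the Aurora kinases run mitosis. Senescent cells have left this cycle for good.

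The measurement of a library was its list of peaks, which the authors had selected at a false discovery rate of 1% or less, with a position and a score and no reads. The depth of each library is therefore unknown, and a missing peak is a peak that was not called. The lists ran from 2794 to 4220 peaks in control replicates 1 and 2 and senescent replicate 1, to 5053 in senescent replicate 3, and to 10601 and 9805 in control replicate 3 and senescent replicate 2, the longest list of each group. Scores were used only to rank peaks within a list, where rank 1 is the best-scoring peak. As a check of the immunoprecipitation, 11 of 11 clock genes (Per1, Per2, Per3, Cry1, Cry2, Nr1d1, Nr1d2, Dbp, Tef, Ciart and Bhlhe40) had a peak in all 6 lists, at best ranks from 1 to 55. These clock genes were chosen with earlier results of these data known, so the check is not independent of them. Peak lists hold no expression, so the cell type could not be checked against its markers.

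A peak counted for the gene whose start site was nearest, whatever the distance, and 42 of the 68 genes had at least 1 peak in at least 1 library (61.8%). Over all genes the share was 36.3%. The other 26 genes had none. Per library, 16, 18 and 35 of the 68 genes had a peak in control replicates 1, 2 and 3, and 17, 35 and 22 in senescent replicates 1, 2 and 3. The long lists gave the high values in each group, and the groups overlapped. The mean was 33.8% ± 15.4 of the 68 genes in control libraries and 36.3% ± 13.7 in senescent libraries (SD, n = 3 each), so the groups differed by less than their replicates did (exact two-sided permutation test, p = 0.8). It turned to a lower senescent share when control replicate 1, control replicate 2 or senescent replicate 2 was left out. With 3 libraries per group there are 20 arrangements of the labels, so no such test can give a p below 0.1. The share over all genes also followed the length of the list, from 9.32% of 21864 genes in control replicate 1 to 26.5% in senescent replicate 2. The 68 genes lay above that share in each of the 6 libraries, as the plot of shares by library shows. Genes differ in the distance to their neighbours, and a gene far from any other collects more peaks by this rule. The part of that in these shares was not tested.

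**Figure D1:**
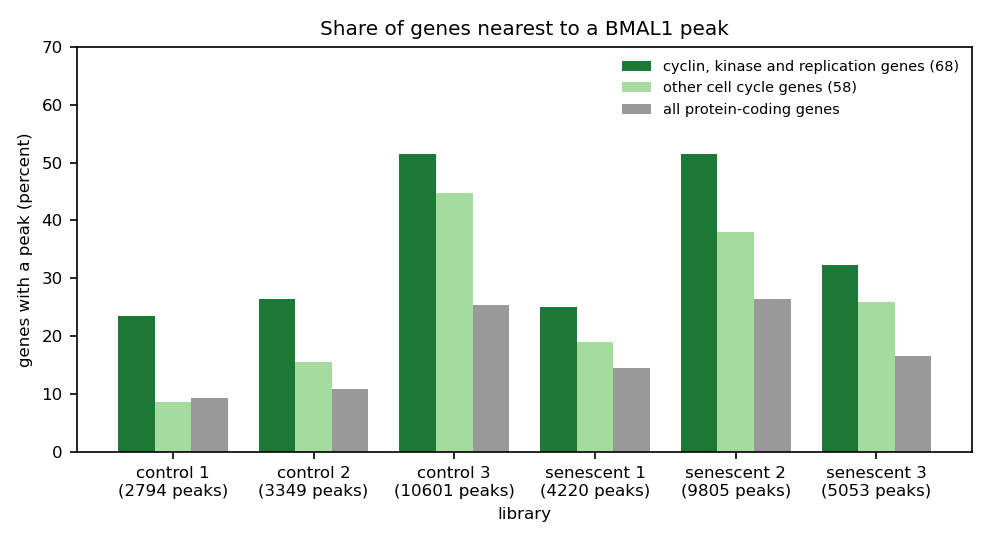
Percent of genes (vertical axis) with at least 1 BMAL1 peak nearest to their start site, in each of the 6 libraries (horizontal axis, with the number of peaks in the list). Dark green bars are the 68 cyclin, kinase and replication genes, light green bars 58 other cell cycle genes and grey bars all 21864 protein-coding genes. The dark green bars run from 23.5% to 51.5% and are highest in the longest list of each group.

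The 68 genes received 22, 20 and 53 peaks in the control libraries and 26, 56 and 33 in the senescent libraries, 210 of 35822 in all. That was 0.628% ± 0.146 (SD, n = 3) of the peaks of control libraries and 0.613% ± 0.041 (SD, n = 3) of the peaks of senescent libraries (exact two-sided permutation test, p = 0.9). A promoter peak, with its centre within 1000 bp of a start site, was called at 5, 6 and 23 genes in control libraries and at 7, 24 and 8 genes in senescent libraries, or 16.7% ± 14.9 and 19.1% ± 14 of the genes (SD, n = 3 each, exact two-sided permutation test, p = 0.5). In both comparisons the groups overlapped. After Benjamini-Hochberg adjustment over the 5 tests of this kind, which include the motif shares given later, every p was 1.0. Among all genes, a promoter peak was called at a mean of 7.06% for the controls and 10.7% for the senescent group. This all-gene share ran from 3.72% in control replicate 1 to 16.7% in senescent replicate 2. Senescent minus control, it differed by 3.67 percentage points, where the 68 genes differed by 2.45. When peaks that overlapped by at least 1 bp were merged over the libraries, the 210 peaks formed 84 of 16818 regions. Of these, 11 (13.1%) were called in all 6 libraries, where the share of all regions was 6.58%, and 38 (45.2%) in 1 library, where it was 55.7%.

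**Figure D2:**
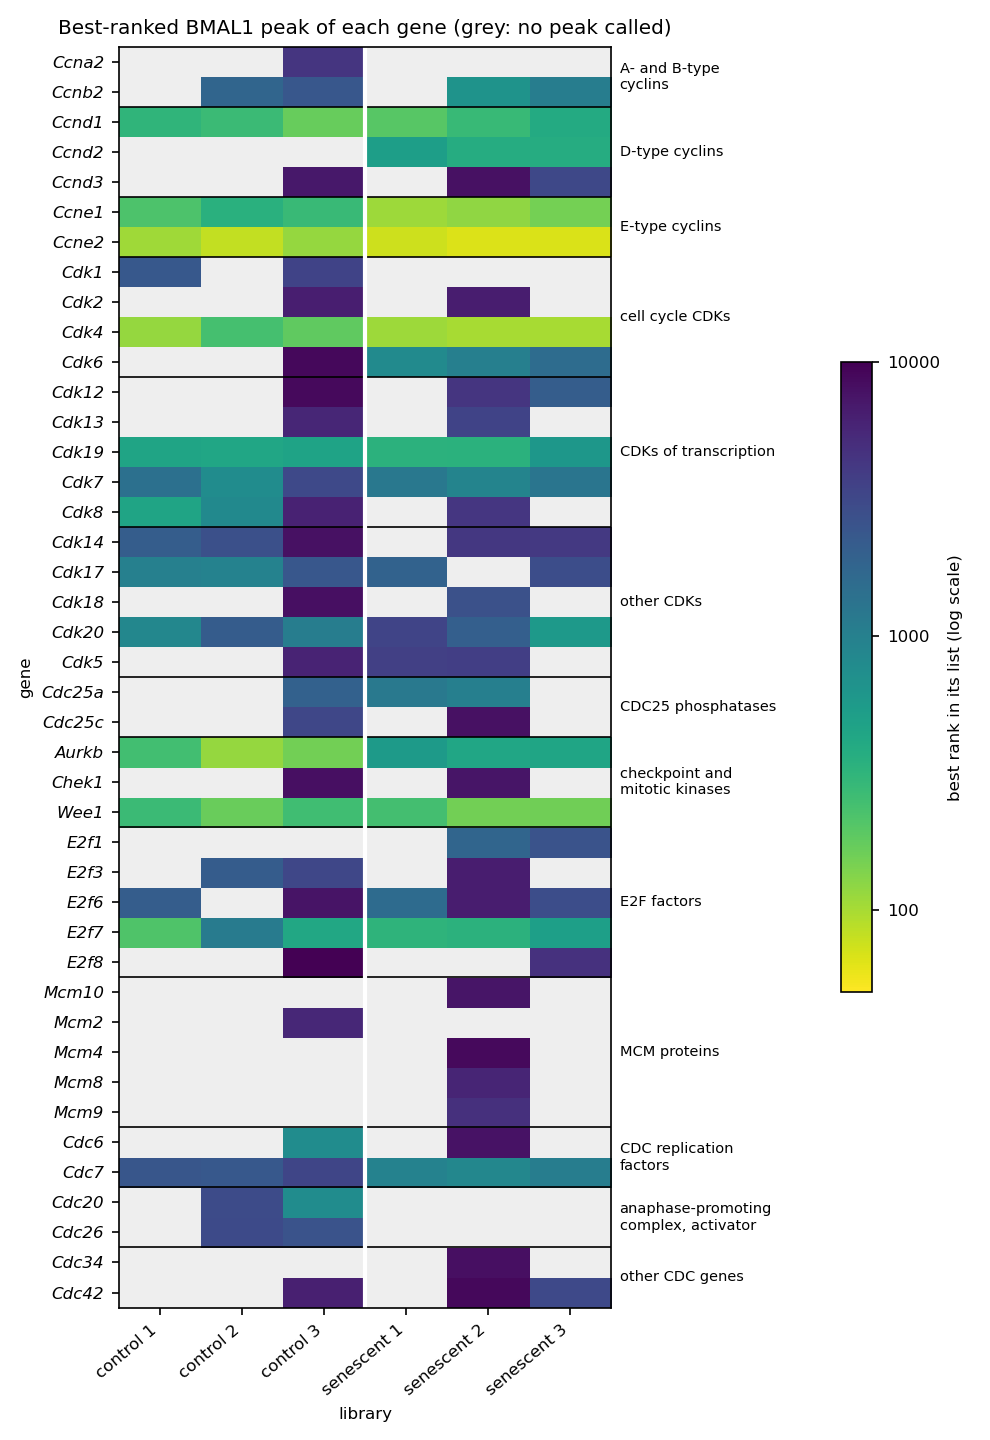
Rank of the best peak (colour, log scale, yellow is best) of the 42 genes with a peak, one row per gene grouped by role, in 3 control and 3 senescent libraries (columns). Grey cells had no peak, and the rows without grey are the 11 genes with a peak in all 6 libraries. MCM genes are filled in control replicate 3 or senescent replicate 2 only.

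The 11 genes with a peak in all 6 libraries (16.2% of 68, against 5.14% of all genes) were Ccnd1, Ccne1, Ccne2, Cdk4, Cdk7, Cdk19, Cdk20, Wee1, Aurkb, E2f7 and Cdc7. They included both E-type cyclins, 1 of 3 D-type cyclins, 1 of 4 kinases of the cell cycle proper and 0 of 9 MCM genes. The map of best ranks shows that the E-type cyclins, Cdk4, Wee1, Ccnd1 and Aurkb held the best places. All values below are ranks in the order of replicates 1, 2 and 3, distances run from the nearest start site of a protein-coding transcript to the centre of the region, and coordinates are those of mm10. In the sequences, which are read from the forward strand of GRCm38 with 30 bases to each side of the motifs, capitals mark an E-box or an AP-1 motif. They are shown because they lie in the regions on which the results turn. The window near a start site is printed for genes with a RefSeq promoter (GRCm38.p6), which 54 of the 68 genes had.

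Among the G1 cyclins, cyclin E2 had the best-ranked region of all 68 genes. The region at Ccne2 (chr4:11190712-11191767) was centred 118 bp upstream of the start site and held 2 E-boxes, at -132 and -440 bp. Its rank was 105.5, 80.5 and 114.5 in control libraries and 75.5, 66.5 and 67 in senescent libraries. Each senescent rank was better than each control rank, with means of 69.7 ± 5.1 and 100.2 ± 17.6 (SD, n = 3 each). This is the smallest exact p the design allows, 0.1. As a percent of the list length the groups overlapped, at 3.78%, 2.40% and 1.08% in control libraries and 1.79%, 0.678% and 1.33% in senescent libraries. The outer of its E-boxes lies in a GC-rich stretch.
Ccne2, E-box at -440 bp, chr4:11190881-11190946: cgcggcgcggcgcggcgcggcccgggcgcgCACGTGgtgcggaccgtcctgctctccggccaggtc

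Cyclin E1, the other activator of CDK2, had no promoter peak in any library. Its peak lay 22336 bp downstream of the start site, beyond the gene and between genes (chr7:38084828-38085664), and held 3 E-boxes, of which a pair stands 13 bases apart. The next gene with a start site near it was Uri1, 65656 bp away. Ranks were 220.5, 349.5 and 277 in control libraries and 109.5, 120 and 150 in senescent libraries, so that every senescent rank was the better. The means were 282.3 ± 64.7 and 126.5 ± 21 (SD, n = 3 each, exact two-sided permutation test, p = 0.1). As a percent of the list length the best control library, at 2.61%, fell within the senescent range of 1.22% to 2.97%.
Ccne1, pair of E-boxes, chr7:38085170-38085254: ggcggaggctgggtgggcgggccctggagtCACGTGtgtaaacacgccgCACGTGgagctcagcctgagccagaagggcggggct
Ccne1, the remaining E-box, chr7:38085465-38085530: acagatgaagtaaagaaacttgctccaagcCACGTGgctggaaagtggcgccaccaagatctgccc

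Cdk4, the kinase of the D-type cyclins, was called at its promoter in every library. The region (chr10:127063007-127064007) was centred 22 bp upstream of the start site and held 4 E-boxes, at -168, -114, -94 and -7 bp. Ranks were 116.5, 238 and 181.5 in control libraries and 108, 99 and 99 in senescent libraries, with means of 178.7 ± 60.8 and 102 ± 5.2 (SD, n = 3 each). Again the groups did not overlap (exact two-sided permutation test, p = 0.1) and again they did as a percent of the list length, at 1.71% to 7.11% in control and 1.01% to 2.56% in senescent libraries. The 3 E-boxes farther from the start site stand within one stretch of promoter.
Cdk4 promoter, chr10:127063333-127063472: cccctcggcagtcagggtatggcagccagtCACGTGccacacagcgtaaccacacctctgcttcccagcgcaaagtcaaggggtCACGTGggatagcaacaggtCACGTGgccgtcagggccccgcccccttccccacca

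The D-type cyclins, which link growth signals to CDK4 and CDK6, were called at different places and in different libraries. Ccnd1 was called in all 6 libraries through a region 116719 bp upstream of its start site (chr7:145056212-145056906), between genes and with 4 E-boxes. Ranks there were 314.5, 272.5 and 171 in control libraries and 200, 280.5 and 389 in senescent libraries, which overlapped (exact two-sided permutation test, p = 0.6). Nearer to the gene, a region 2686 bp upstream (chr7:144942180-144942957) with an E-box was called in every senescent library, at 1338.5, 468.5 and 1504, and in control replicate 3 alone of the controls, at 3406.5. A region 3609 bp upstream, also with an E-box, was called at 3834.5 and 2784.5 in senescent replicates 1 and 2 and in no control library. At the start site itself the only peak was that of senescent replicate 2, at rank 4415.
Ccnd1, far upstream region, pair of E-boxes, chr7:145056431-145056560: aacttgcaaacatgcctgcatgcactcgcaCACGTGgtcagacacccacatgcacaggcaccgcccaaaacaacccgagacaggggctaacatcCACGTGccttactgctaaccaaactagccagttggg
Ccnd1, E-box at -2728 bp, chr7:144942564-144942629: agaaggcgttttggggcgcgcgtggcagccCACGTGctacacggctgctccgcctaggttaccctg
Ccnd1, E-box at -3607 bp, chr7:144943443-144943508: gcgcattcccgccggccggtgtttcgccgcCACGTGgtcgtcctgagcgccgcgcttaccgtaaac

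Ccnd2 had no peak in any control library and 3, 7 and 4 peaks in senescent replicates 1, 2 and 3. Its best region (chr6:127153431-127154012) lay 2662 bp upstream, in an intron of the antisense transcript 9330179D12Rik, and held 2 E-boxes. It ranked 518, 373.5 and 372.5 in the senescent lists, so it stood in the upper part of each. A region 1113 bp upstream, with an E-box, was also called in every senescent library, at 2831.5, 2315 and 4549, and its centre lies in an untranslated exon of a longer Ccnd2 transcript. Regions 1583 bp upstream and 865 bp downstream were each called in 2 senescent libraries. Without reads, whether BMAL1 was absent there in control cells was not tested.
Ccnd2, E-box at -2598 bp, chr6:127153625-127153690: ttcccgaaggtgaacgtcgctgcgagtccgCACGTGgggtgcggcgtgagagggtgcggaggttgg
Ccnd2, E-box at -2696 bp, chr6:127153723-127153788: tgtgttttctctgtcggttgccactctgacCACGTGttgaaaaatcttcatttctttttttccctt
Ccnd2, E-box at -1195 bp, chr6:127152222-127152287: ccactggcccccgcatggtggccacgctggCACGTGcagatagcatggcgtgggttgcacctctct

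The third cyclin of this class, Ccnd3, had weak calls. An intronic region 6102 bp downstream of a start site, with an AP-1 motif (TGANTCA with C or G at the N), ranked 7921 and 3187 in senescent replicates 2 and 3. A promoter peak ranked 7160 in control replicate 3.
Ccnd3, AP-1 motif, chr17:47511241-47511307: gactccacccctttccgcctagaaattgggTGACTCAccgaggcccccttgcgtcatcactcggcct

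Cdk6 was a further gene whose called regions lay on the senescent side, though it had 1 control peak. A region 117439 bp upstream of its start site (chr5:3226266-3226642), between genes and 317379 bp from the next gene Fam133b, was called in no control library and ranked 796.5, 1017.5 and 1546.5 in senescent libraries. It held 3 E-boxes, of which a pair stands 6 bases apart. A second region, 191451 bp upstream, ranked 3788 and 4820.5 in senescent replicates 1 and 2. The control peak, in control replicate 3, was an intronic one at rank 8888.5. Cdk6 was named after its values were seen, as were Ccnb2, Ccnd3, Cdk8, Cdk14, Cdk17 and E2f6.
Cdk6, pair of E-boxes, chr5:3226402-3226479: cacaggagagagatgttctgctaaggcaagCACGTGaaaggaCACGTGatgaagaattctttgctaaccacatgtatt
Cdk6, the remaining E-box, chr5:3226535-3226600: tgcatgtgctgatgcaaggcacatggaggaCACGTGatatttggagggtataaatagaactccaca

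**Figure D3:**
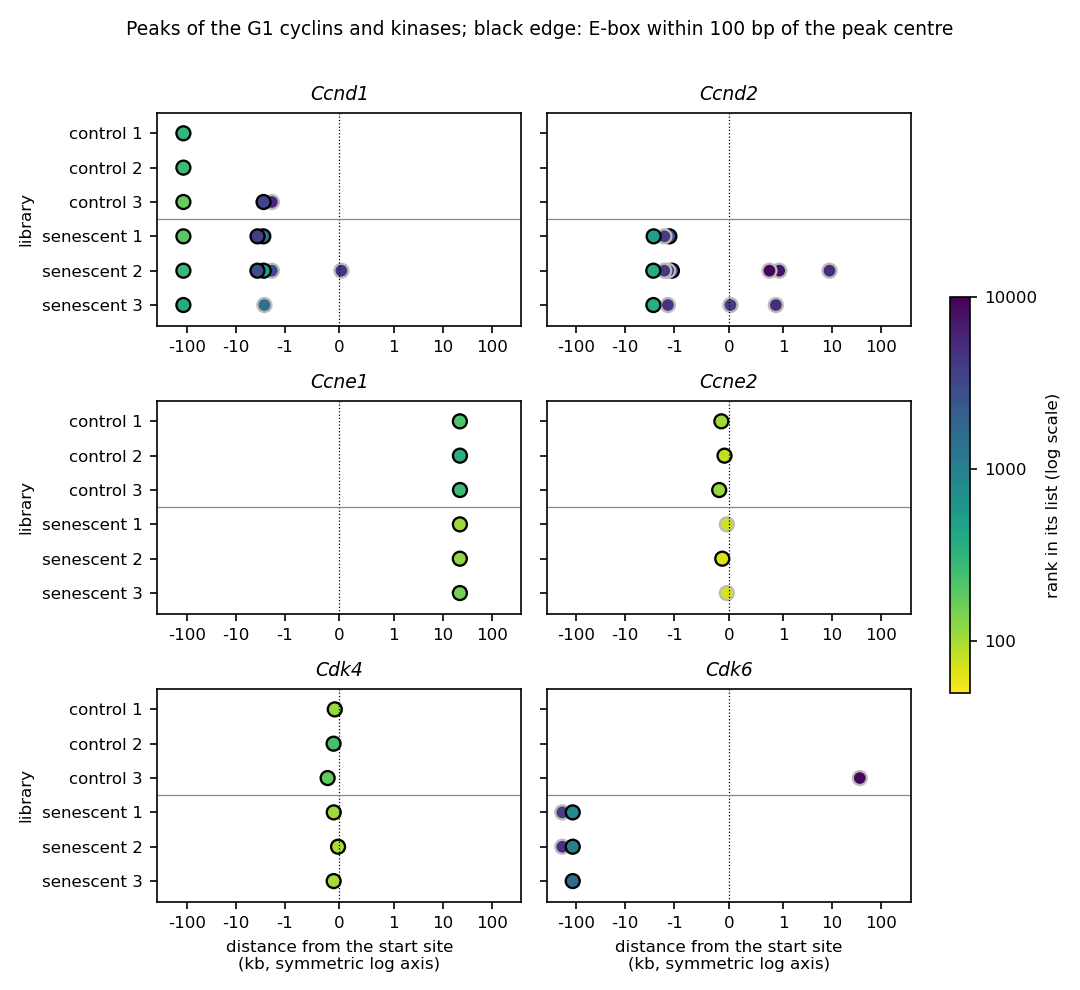
Position of each peak (horizontal axis, distance from the start site in kb on a symmetric log scale, negative upstream) of 6 G1 cyclin and kinase genes in each library (vertical axis). Colour is the rank in the list (log scale, yellow is best), and a black edge marks an E-box within 100 bp of the peak centre. The peaks of Ccne1, Ccne2 and Cdk4 stand at 1 place in all 6 libraries, and those of Ccnd2 are in senescent libraries only.

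The remaining kinases of the cell cycle proper had few peaks. Cdk1, the kinase of mitosis, was counted as called in control libraries only, but its 2 peaks were at different places. Control replicate 1 had a peak 26272 bp downstream of the start site, at rank 2301, and control replicate 3 had one 60 bp upstream, at rank 3433. No Cdk1 region was thus called in more than 1 library. Cdk2, the partner of cyclin E, had a promoter peak in the longest list of each group, at ranks 6398.5 and 6610.

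Among the kinases that hold or release the mitotic kinase, Wee1 was called at its promoter in all 6 libraries. The region (chr7:110121153-110122314) was centred 240 bp upstream of the start site, in an intron of the antisense transcript 1600010M07Rik, and held 3 E-boxes, at -641, 3 and 203 bp, none of them within 100 bp of the centre. Ranks were 268.5, 167 and 252 in control libraries and 245.5, 155.5 and 157 in senescent libraries. The groups overlapped, with means of 229.2 ± 54.5 and 186 ± 51.5 (SD, n = 3 each, exact two-sided permutation test, p = 0.2). Wee1 also had a region 42101 bp downstream, called in 2 libraries of each group, and a region 7153 bp upstream with an AP-1 motif, called at 8042.5 and 4676.5 in senescent replicates 2 and 3. The E-box farthest from the start site is shown.
Wee1, E-box at -641 bp, chr7:110121372-110121437: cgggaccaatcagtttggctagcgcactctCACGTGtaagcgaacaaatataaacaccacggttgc

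Cdc25a, the phosphatase that removes the inhibitory phosphate placed by WEE1, had a promoter region 125 bp upstream of its start site that ranked 1937.5 in control replicate 3 and 1171 and 1017.5 in senescent replicates 1 and 2. It held no E-box. Cdc25c had a promoter peak in the longest list of each group and Cdc25b had none. Of the checkpoint kinases, Chek1 was called at its promoter in the longest lists only, at ranks 8046.5 and 7377.5, and Chek2 was nearest to none. Plk1 and Aurka, both kinases of mitosis, were nearest to no peak. Of the 26 genes without a peak by this rule, 4 had one within 1000 bp of a start site of their own that was nearer to another gene's. These were Aurka (3 senescent libraries), Cdc27 (senescent replicates 1 and 2), Chek2 (control replicate 3 and senescent replicates 2 and 3) and Mcm7 (control replicate 3 and senescent replicate 3), whose start sites lie 199, 180, 223 and 184 bp from those of Cstf1, Myl4, Hscb and Ap4m1.

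Aurkb, the kinase of the chromosomal passenger complex, had better ranks in control libraries. A region 4271 bp upstream of its start site (chr11:69040103-69042131) ranked 251, 116 and 156 in control libraries and 559, 611.5 and 443 in senescent libraries. A second region 8181 bp upstream (chr11:69036805-69038129) ranked 384, 190 and 281.5 in control libraries and 609.5, 437 and 1316.5 in senescent libraries. All control ranks were better than all senescent ranks at both regions (exact two-sided permutation test, p = 0.1 for each). As a percent of the list length both overlapped, the first at 1.47% to 8.98% in control and 6.24% to 13.2% in senescent libraries. Both regions lie between genes and belong to Aurkb by distance alone, with Borcs6 and Ctc1 as the next genes 18341 and 21369 bp away. The first held 1 E-box, which was not within 100 bp of its best peak's centre, and the second held none.
Aurkb, E-box at -3951 bp, chr11:69041663-69041728: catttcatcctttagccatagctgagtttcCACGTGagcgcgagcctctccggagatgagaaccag

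The ranks of the 11 genes can be read against all 1123 genes with a peak in all 6 libraries. The best rank was better in every senescent library for 4 of the 11 genes (Ccne1, Ccne2, Cdk4 and Cdc7), where the share over all such genes was 18.3%, and better in every control library for 1 (Aurkb), where it was 19.4%. With ranks as a percent of the list length, 1 of the 11 genes remained, Cdc7, and the shares over all genes were 13.4% and 5.52%. The best peaks of Cdc7 were not all at the same place. That of control replicate 3 lay 160181 bp downstream of the start site, and that of senescent replicate 2 lay 122944 bp downstream. By exact two-sided permutation tests, 423 of the 1123 genes had the smallest possible p of 0.1. After Benjamini-Hochberg adjustment over the 1123 genes, the smallest p was 0.265. As no p of this design can be below 0.1, the adjustment cannot single out a gene.

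**Figure D4:**
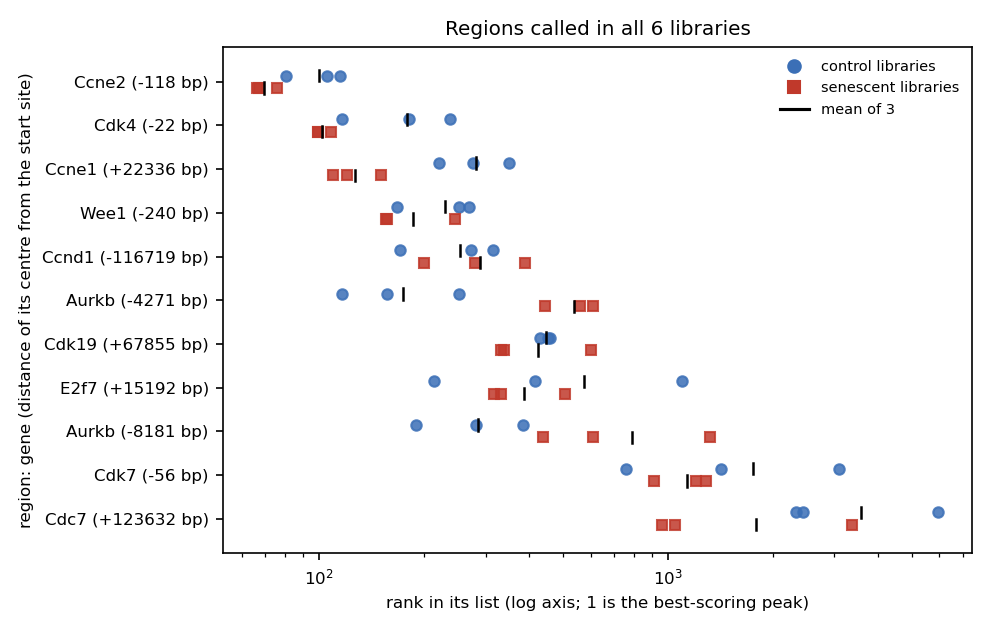
Rank (horizontal log axis, 1 is the best-scoring peak) of the 11 regions called in all 6 libraries, labelled by gene and distance in bp, in control (blue circles) and senescent (red squares) libraries, with a black tick at the mean of 3. Blue and red points are apart for Ccne2, Cdk4 and Ccne1, with red better, and for both Aurkb regions, with blue better.

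Of the 14 kinases of transcription and other CDKs, 3 had a peak in all 6 libraries, namely Cdk7, Cdk19 and Cdk20. Cdk19, a kinase of the Mediator complex, was bound in its own intron 67855 bp downstream of the start site (chr10:40416887-40417501), at a region that was alone among the shared ones in holding both an E-box and an AP-1 motif within 100 bp of the centre. Ranks were 452.5, 431 and 460 in control libraries and 332, 338.5 and 600 in senescent libraries, which overlapped (exact two-sided permutation test, p = 1.0). Its paralog Cdk8 had a region in its intron, 29905 bp downstream, that ranked 452.5, 814 and 6008.5 in control libraries and 4366 in senescent replicate 2, and was not called in the other senescent libraries. This region held neither motif near its centre.
Cdk19, AP-1 motif then E-box, chr10:40417062-40417173: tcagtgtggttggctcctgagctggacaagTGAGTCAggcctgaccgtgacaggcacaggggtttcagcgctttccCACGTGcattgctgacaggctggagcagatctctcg

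Cdk7, the CDK-activating kinase and a subunit of TFIIH, was called at its promoter in all 6 libraries, 56 bp upstream of the start site (chr13:100730756-100731197). Ranks were 1420, 756.5 and 3086 in control libraries and 1200.5, 911.5 and 1285 in senescent libraries, which overlapped (exact two-sided permutation test, p = 0.6). Cdk20 was called in all 6 libraries by gene, through a promoter region with 2 E-boxes that was missing in control replicate 2 and ranked 865.5 and 1054 in control replicates 1 and 3 and 3401.5, 1993 and 584.5 in senescent libraries. Cdk12 and Cdk5 each had a promoter peak in 3 libraries, in control replicate 3 and 2 senescent libraries, at ranks from 2116 to 8732.5.
Cdk7 promoter, chr13:100731007-100731072: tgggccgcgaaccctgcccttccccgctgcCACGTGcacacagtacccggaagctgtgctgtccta

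Cdk17 was a gene called in both groups through different regions. In Cdk17 an intronic region 16900 bp downstream of the start site (chr10:93177389-93178148) ranked 988.5, 958 and 2384.5 in control libraries and was called in no senescent library. A region 21920 bp upstream ranked 1874.5 and 2838 in senescent replicates 1 and 3 and was called in no control library. Neither had an E-box. The best region of Cdk14 lay in its intron with an AP-1 motif and was called in all control libraries and in senescent replicates 2 and 3, at ranks from 2103 to 9164.5.

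Of the E2F factors, which drive the genes of S phase or, as E2F7 and E2F8 do, repress them, E2f7 was called in all 6 libraries. The region lay in its intron 15192 bp downstream of the start site (chr10:110760598-110760924) and held an E-box. Ranks were 214, 1096.5 and 417 in control libraries and 317.5, 332 and 507.5 in senescent libraries, which overlapped (exact two-sided permutation test, p = 0.8). E2f1, the factor most tied to S phase entry, had no peak in control libraries. A region with 2 E-boxes in its transcribed start, 484 bp downstream (chr2:154569059-154569412), ranked 1785 and 2603.5 in senescent replicates 2 and 3 and was not called in senescent replicate 1. E2f3 had a promoter region 156 bp upstream that ranked 2136.5 and 3242.5 in control replicates 2 and 3 and was called in no senescent library, while senescent replicate 2 had a peak at another start site of the gene, at rank 6610. E2f6 was called in 5 libraries with a best rank of 1560.5, and E2f2, E2f4 and E2f5 in none.
E2f7, E-box in the intron, chr10:110760688-110760753: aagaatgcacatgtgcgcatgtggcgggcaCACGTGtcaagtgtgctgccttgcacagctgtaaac

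Of the 9 MCM genes, which encode the replicative helicase and its relatives, 5 had a peak, each in 1 library. Of the 3 CDC replication factors, 2 had a peak, Cdc6 in 2 libraries and Cdc7 in all 6. A peak in exactly 1 library was called at 10.3% of the 68 genes and 11.8% of all genes. Mcm2, the member always named here, had a peak 31 bp downstream of its start site in control replicate 3, at rank 5544.5. Mcm4, Mcm8, Mcm9 and Mcm10 had a promoter peak in senescent replicate 2, at ranks from 4820.5 to 8730. The peaks of Mcm4 and Mcm8 also lay within 1000 bp of the start sites of Prkdc and Trmt6 and cannot be told apart from peaks of these genes. Senescent replicate 3 also had a peak within 1000 bp of a start site of Mcm9, nearer to that of another gene. Mcm3, Mcm5, Mcm6, Mcm7 and the origin factor Cdc45 were nearest to no peak, and Cdc6, the loader of the helicase, had a promoter peak in the longest list of each group, at ranks 758 and 7711.5.

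Cdc7, the kinase that fires origins, was called in all 6 libraries, but only far from the gene. The region 123632 bp downstream of its start site (chr5:107087954-107088557) held 2 E-boxes 12 bases apart. It ranked 2447.5, 2336.5 and 5951 in control libraries and 962, 3373 and 1050.5 in senescent libraries. These ranks overlapped (exact two-sided permutation test, p = 0.3), while as a percent of the list length they did not, at 56.1% to 87.6% in control and 20.8% to 34.4% in senescent libraries. A neighbouring region at 122944 bp was called in senescent libraries only, at 3282, 852.5 and 2405.5.
Cdc7, pair of E-boxes, chr5:107088249-107088332: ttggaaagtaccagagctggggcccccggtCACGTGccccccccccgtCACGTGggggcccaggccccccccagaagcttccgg

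Of the 5 genes of the anaphase-promoting complex and its activator 2 had a peak, as had 2 of the 5 A- and B-type cyclins, shares near the 36.3% of all genes. Cdc20, the activator of the complex, was called in control libraries only, through a distal region that ranked 2985 and 767.5 in control replicates 2 and 3. Cdc26, a small subunit, was also counted there, but with 1 peak per library at different places. Its peak in control replicate 3 lay within 1000 bp of the start site of Prpf4 as well. Cdc16, Cdc23 and Cdc27 were nearest to no peak. Of the A- and B-type cyclins, Ccnb2 had a distal region with an AP-1 motif, in an intron of Myo1e 102791 bp from its start site, that ranked 1781.5 and 2384.5 in control replicates 2 and 3 and 659 and 1057 in senescent replicates 2 and 3. Ccna2 had promoter peaks in control replicate 3, and Ccna1, Ccnb1 and Ccnb3 had none. Of the remaining genes, Cdk13, Cdk18, Cdc34, Cdc42 and E2f8 had peaks in 1 to 3 libraries, at ranks from 2691 to 9808, and Cdk9, Cdk10, Cdk15, Cdk16, Cdc37, Cdc40, Cdc73 and Cdc123 had none.

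By gene, Ccnd2 and E2f1 were thus called in senescent libraries only (at least 2 of 3 against 0 of 3), 2.94% of the 68 genes where the share of all genes was 3.42%, and Cdc20, Cdc26 and Cdk1 in control libraries only, 4.41% where it was 1.64%. These counts were small and turned on single libraries. Without control replicate 3 there were 8 genes called in senescent libraries only (Ccnd2, Ccnd3, Cdc25a, Cdc42, Cdk5, Cdk6, Cdk12 and E2f1) and 0 in control libraries only, and without senescent replicate 2 there were 1 (Ccnd2) and 5. Over all genes the counts moved the same way, from 748 and 358 to 1716 and 114 without control replicate 3 and to 357 and 653 without senescent replicate 2. By region, 12 of 84 (14.3%) were called in senescent libraries only and 3 (3.57%) in control libraries only, where the shares of all regions were 9.44% and 5.86%. Of the 12, 6 belonged to Ccnd1, Ccnd2 and Ccnd3 and 2 to Cdk6. The 12 became 5 with the best 2794 peaks of each list and 5 without senescent replicate 2. Counts over all regions were not made for these settings.

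An E-box was found near the centre of most of the shared regions. It lay within 100 bp of the centre in 21 of 84 regions (25.0%, 95% Wilson interval 17.0 to 35.2) and in 17.0% of all regions. In the 11 regions called in all 6 libraries it lay in 8 (72.7%, 95% Wilson interval 43.4 to 90.3). The share of all such regions was 45.2%, within that interval. An E-box lay in 5 of 12 senescent-only regions (41.7%), 0 of 3 control-only regions and 3 of 38 called in 1 library (7.89%). The shares of all such regions were 38.4%, 8.62% and 9.27%. The AP-1 motif was in 12 of 84 regions (14.3%, 95% Wilson interval 8.37 to 23.3), where all regions had 16.6%, and 11 of the 12 were distal, as were 2521 of the 2787 regions with the motif overall. Per library, an E-box was in 50%, 45% and 20.8% of the peaks of these genes in control libraries and in 53.8%, 33.9% and 39.4% in senescent libraries. The lowest share was that of the longest list. The means of 38.6% ± 15.6 and 42.4% ± 10.3 (SD, n = 3 each) were closer than the replicates of a group (exact two-sided permutation test, p = 0.8). For AP-1 the shares were 9.09%, 20.0% and 9.43% in control libraries and 3.85%, 10.7% and 24.2% in senescent libraries, with means of 12.8% ± 6.2 and 12.9% ± 10.4 (SD, n = 3 each, exact two-sided permutation test, p = 1.0). Each library had at most 56 peaks here, so the intervals were wide, as the plot of motif shares shows. Over all peaks of a library the AP-1 share was 12.9% on average in control and 16.7% in senescent libraries. Windows of the same 200 bp placed 2000 bp away from the peaks of these genes held an E-box in 0 to 7.69% per library.

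**Figure D5:**
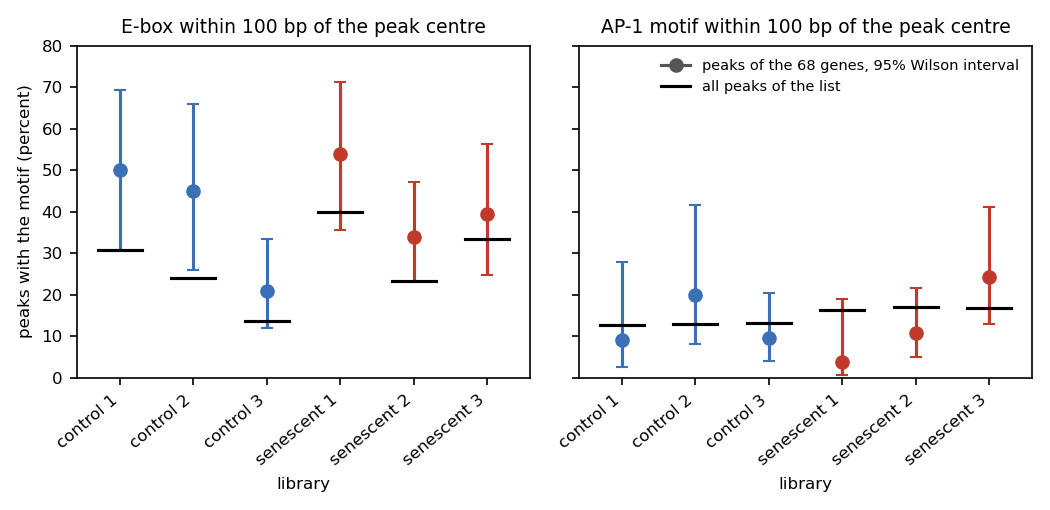
Percent of the peaks of the 68 genes with an E-box (left) or an AP-1 motif (right) within 100 bp of the peak centre, by library (horizontal axis). Points are control (blue) and senescent (red) libraries with 95% Wilson intervals (counting error only), and black lines are all peaks of the same list. For the E-box each point lies above the black line of its library, and for AP-1 points lie on both sides.

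Promoter regions carried other motifs as well. Of the 84 regions, 37 were promoter regions, and 24 of these (64.9%) were called in no library other than control replicate 3 and senescent replicate 2, where the share of all promoter regions was 52.3%. An E2F motif (TTTNNCGC with C or G at each N, on either strand) lay in 6 of the 37 (16.2%), where all promoter regions had 2.61%. An NF-Y motif (CCAAT, then C or G, then A or G) lay in 13 (35.1%), where all had 24.2%. Both motifs are known features of cell cycle promoters. The CHR motif (TTTGAA or TTCGAA, on either strand), searched as well, lay in 4 of the 37 (10.8%), where all promoter regions had 9.10%. In the RefSeq promoters, from 250 bases before to 50 after the start, the E2F motif was in 13 of 54 of these genes (24.1%) and 3.32% of 16515 genes, whether bound or not. The NF-Y motif was in 23 of 54 (42.6%) and 22.1% of all. By promoter peak, the NF-Y motif was in 8 of the 21 genes with one (38.1%) and 15 of the 33 without (45.5%). The E-box was in 8 of 54 (14.8%) and 9.18% of all. It was in 6 of the 21 with a promoter peak (Cdk4, Cdk7, Cdk18, Cdk20, E2f3 and Mcm8) and in 2 of the 33 without (Cdk6 and Cdk8). The genes without an entry were Aurkb, Ccna2, Ccnd1, Ccnd2, Ccne2, Cdc23, Cdc25c, Cdk5, Cdk17, Cdk19, E2f4, E2f5, Mcm4 and Wee1.

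A list of 58 other cell cycle genes, among them the retinoblastoma family, DREAM subunits, origin factors, spindle checkpoint genes and further cyclins, was set beside the 68. A peak was called at 33 of the 58 (56.9%, against 36.3% of all genes), and per library at 5, 9 and 26 in control and 11, 22 and 15 in senescent libraries. The mean shares were 23.0% in control and 27.6% in senescent libraries, where all genes had 15.2% and 19.2%. Genes called in all 6 libraries were 4 (6.90%, against 5.14% of all genes), Ccng1, Lin52, Myc and Plk2. Cdt1 was called in senescent libraries only (1.72%, against 3.42% of all genes) and Lin37 in control libraries only (1.72%, against 1.64%). Rb1, Foxm1, Orc1 and Skp2 had no peak.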

How the data were processed

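BMAL1-ChIP-seq peaks were analysed in 3 control and 3 senescent libraries, with groups and replicate numbers taken from the titles. The authors aligned paired reads to mm10 with the Burrows-Wheeler Aligner, removed duplicates with Picard (named in the submitters' processing notes), and called peaks per library with MACS2 at an FDR of 1% or less. The MACS2 version and the use of input are not given in the sources used here. The sources name different suppliers of the antibody. The deposited score was read as the −log10 q-value, since the smallest score of each list lay just above 2. It is not normalized between libraries, so it was turned into ranks within a list, where ties share a mean rank. Depth is unknown.

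Each peak was assigned by its midpoint to the nearest start site of protein-coding transcripts of the basic GENCODE M21 annotation. Peaks were merged over libraries at an overlap of 1 bp. A region took the distance and motif window of its best-ranked peak. Motifs were searched as exact letters on both strands, CACGTG and its reverse complement being the same. Group means were compared by exact two-sided permutation tests over 20 arrangements, with Benjamini-Hochberg adjustment over 5 tests. Scripts (Python 3.11.15, scipy 1.17.1, pysam 0.24.0) were tested on simulated data. Genes named with values were those with a peak in all 6 libraries, those called in 2 or more libraries of a group and in 0 of the other, the 10 of best mean rank with a peak in at least 3 libraries, those with a promoter peak in at least 3 libraries, and Wee1, Ccnd1, Cdk1, Cdc25a, E2f1 and Mcm2. Outside these rules, ranks were also given for Cdk2, Chek1 and Cdc6 and for the genes named after their values were seen. Some further genes were given with a range of ranks. The genes, the comparison list and the clock genes were chosen with earlier results of these data known.

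Alternatives were each library left out, peaks above the median score of their list, the best 2794 peaks of each list, autosomes and X only, a looser reading of the symbols, the first start site of each gene, a limit of 50 kb, any own start site within 1000 bp, a promoter distance of 3000 bp, motif windows of 50 bp or the whole peak, CACGTT as a further E-box, ranks as a percent of the list, and a replicate block. Leaving out the longest list of each group and the counts by region under the alternatives were added after seeing the data. The position of 1 region is not reported here.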

Additional observations from a re-analysis of the deposited data

How the results depend on the processing

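With the settings of the report the 5 differences per library (senescent minus control) were small, and their sign depended on single libraries. Leaving out 1 library at a time, the share of genes with a peak differed by -5.15 (without senescent replicate 2) to 11.3 percentage points (without control replicate 3), that with a promoter peak by -5.64 to 11.0, the share of peaks by -0.0789 to 0.0649, the E-box share by -5.11 to 9.51 and the AP-1 share by -5.56 to 4.64. The share of peaks also turned to 0.00524 with peaks above the median score and to 0.0716 with equal peak numbers. The E-box share turned to -0.880 without the longest list of each group. The AP-1 share turned to -3.18 with equal peak numbers, -0.579 with the looser reading of the symbols, -2.90 with a motif window of 50 bp and -0.501 without the longest lists. The cause was not tested. No p of this design can be below 0.1.

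Genes called in senescent libraries only ranged from 1 to 8 when a library was left out (357 to 1716 over all genes) and were 5 with any own start site within 1000 bp (Aurka, Ccnd2, Cdc27, E2f1 and Mcm9, and 491 over all genes). Genes called in control libraries only ranged from 0 to 5 (114 to 653 over all genes), and were 0 with peaks above the median score, 1 with any own start site and 1 without the longest lists. The corresponding regions ranged from 5 to 16 and from 1 to 4. Senescent-only regions were 5 with peaks above the median score, 5 with equal peak numbers and 6 without the longest lists, and control-only regions were 1 with peaks above the median score. The genes whose ranks did not overlap, 5 in the report, were 1 with ranks as a percent of the list and 4 to 7 under the other alternatives.

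With libraries paired by replicate number (replicate block, exact sign-flip test, smallest possible p 0.25) the differences were the same, 2.45 percentage points for genes with a peak, and p was 0.75 to 1.0. The correlations of same-numbered libraries were -0.122, 0.142 and 0.113, and those of other pairs ran from -0.227 to 0.170. With 3 libraries per group, these values cannot tell whether the numbers pair the libraries. Without reads, a missing peak cannot be told apart from low depth.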
